A study of Mus musculus with 24 samples.

Results

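Mouse thyroid glands bearing papillary tumours were compared with pools of normal thyroid glands, across all genes that the array could measure. The members are 4 arrays of samples labelled papillary thyroid carcinoma (PTC) and 6 arrays of pooled normal glands, which makes 10 of the 24 arrays of the series. They were taken by their labels, and no array of either kind was left out. The series concerns how mouse anaplastic thyroid cancers escape the inactivation of oncogenic BRAF, and profiled thyroids and tumour-bearing glands of several mouse models. Its other 5 anaplastic and 9 recurrent arrays entered only 1 alternative fit. For the PTC group the labels give no strain, genotype, driver allele, sex, age or treatment, and the treatment fields are empty for both groups. The PTC arrays and 4 of the pools carry titles of 1 style, with a JK number, and those pools are also titled WT. The other 2 pools are titled Cre Pool, with no statement of which allele the animals carried. Each normal array holds RNA of several glands, while nothing in the labels says that the 4 tumours came from separate animals. The p-values therefore measure the spread between these samples only.

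Follicular cells of the thyroid trap iodide, build it into thyroglobulin and release thyroid hormone. In human papillary carcinoma most tumours carry a mutation, often in BRAF, that keeps the MAPK cascade active, and the loss of iodide-handling genes is a known feature of these tumours. A dissected mouse thyroid also brings along parathyroid tissue, calcitonin-producing C cells, vessels, brown fat and pieces of the trachea. All values below are log2 signals of Affymetrix probe sets as the authors normalized them, with 1 probe set standing for each gene. Differences are PTC minus normal on that log2 scale, so that 1 unit is 2-fold. A gene is called where the adjusted p of limma over all 12394 genes lies under 0.05.

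The 10 arrays had medians between 7.45 and 7.53. PTC arrays correlated with each other at 0.984 to 0.992 over all probe sets, against 0.970 to 0.993 among the pools and 0.932 to 0.959 between the groups. Normal pool 5, titled Cre, stood apart from the other pools. Its Ucp1, the uncoupling protein of brown fat, was 5.60, while the other pools ranged upward from 10.86. Its macrophage protease Mmp12 was 11.21, while the median of the 6 pools was 4.66. Pool 5 was also the pool nearest to the tumours in 886 of 1534 genes called with at least 2-fold (57.8%), and the other pools were nearest in 4.89% to 12.2%. Xist, the RNA of the inactive X chromosome, was 13.24, 13.45, 6.21 and 13.28 in the PTC arrays, against 6.87 to 13.02 in the pools with a median of 7.5. The Y-linked Eif2s3y was 3.09, 3.27, 10.09 and 3.36 in PTC, against 3.51 to 9.74 in the pools. Neither gene was called, with limma adjusted p of 0.121 and 0.0937, and the part of sex in the differences was not tested. The 3′ minus 5′ signal of the Gapdh control probes, which grows as RNA is broken or labelled short, was 1.39 ± 0.226 in PTC (SD, n = 4), against 0.75 ± 0.134 in the pools (SD, n = 6). The groups did not overlap (exact two-sided permutation p = 0.00952, the smallest that 4 against 6 arrays allow). For the Actb controls the same signal was 1.74 in PTC, against 1.5 in the pools (exact permutation p = 0.124). What part RNA quality had in the differences was not tested.

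Changes reached a large share of the genes tested. Limma called 5676 of 12394 genes (45.8%), 2634 of them higher in PTC (21.3%) and 3042 lower (24.5%). The last 2 shares are those to set beside the counts of each gene list below. Most shifts were small, and 2079 of the called genes (36.6%) differed by under 0.5 log2. At 2-fold or more, 768 genes were higher (6.2%) and 766 lower (6.18%). Among the largest differences rises outnumbered falls, with 63 genes higher and 53 lower by at least 8-fold, and 11 higher but 2 lower by at least 64-fold. In 1808 genes all 4 PTC values lay above all 6 pools (14.6%), and in 2443 all lay below (19.7%), which makes 34.3% of genes without overlap. The median difference over all genes was -0.01. Within the JK-titled arrays alone, 4 PTC against 4 pools, limma called 5946 genes (48%). The plot of difference against level shows how 4 of the gene lists described below sit in this cloud.

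**Figure D1:**
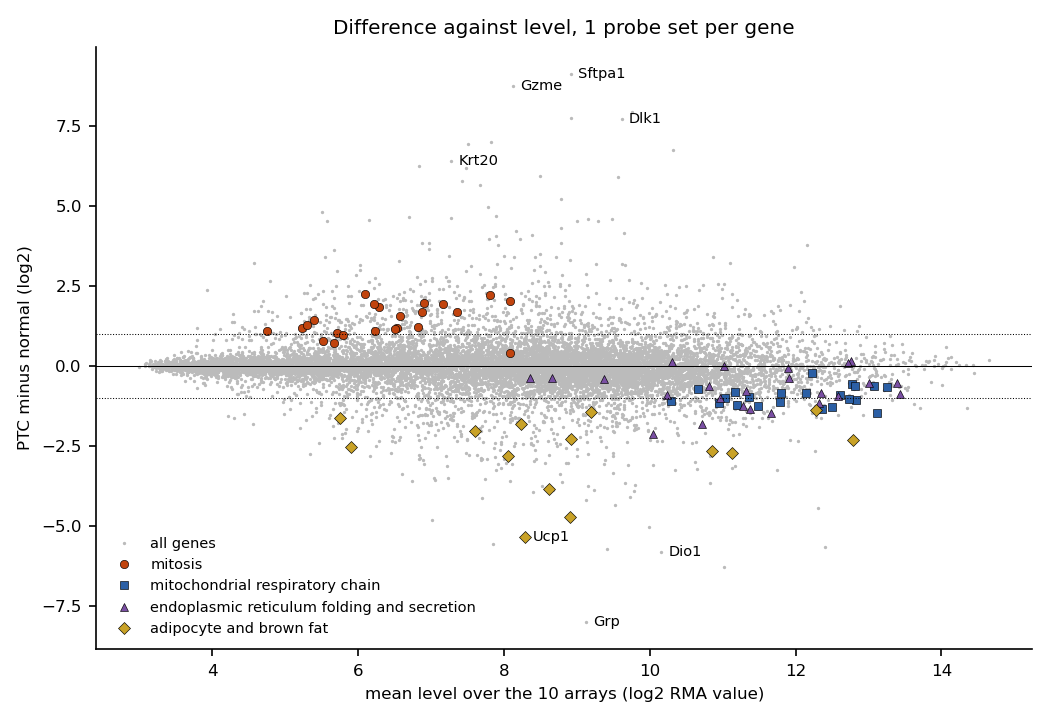
Each point is 1 gene, with its mean level over the 10 arrays on the horizontal axis (log2) and its PTC minus normal difference on the vertical axis (log2); dotted lines mark 2-fold. Mitosis genes lie above 0 at low to middle levels, and respiratory chain genes lie below 0 at high levels.

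Braf itself was higher in the tumours. It read 7.81, 7.95, 7.58 and 7.78 in PTC, against 5.95 to 6.67 in the pools (median 6.21), a difference of 1.53 ± 0.15 (SE, limma adjusted p = 1.45e-05). The array does not tell a mutant from a normal transcript, and the position of the probe set on the transcript was not examined. Met, the receptor named in the title of the series, was 5.17 ± 0.17 in PTC and 5.14 ± 0.15 in the pools (SD), and its ligand Hgf was 5.16 ± 0.14 in PTC and 5.25 ± 0.33 in the pools. Both pairs overlapped and neither gene was called (limma adjusted p 0.828 and 0.69). Both probe sets were dim on every array, under the floor of 6 log2 used in the alternative for dim genes. Such signals cannot be told from background, so a difference in either gene could be missed.

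Genes of thyroid function were lower, but unevenly. Among 15 measured genes of hormone production, 8 were lower and 3 higher, with a median of -0.56 beside -0.01 over all genes. Thyroglobulin (Tg) was 13.49, 14.24, 13.46 and 13.11 in PTC, against 14.80 to 14.96 in the pools, the last being the highest value on these 10 arrays. It fell by 1.31 log2, and the groups did not overlap. Iyd, which strips iodide from unused iodotyrosines, fell by 2.65, with no overlap, and the deiodinase Dio1 fell by 5.80. Slc26a7, an anion carrier needed for hormone synthesis, was 4.60, 5.47, 5.41 and 5.37 in PTC, against 8.63 to 9.67 in the pools. The apical iodide transport candidate Slc5a8 averaged 6.27 ± 0.44 in PTC and 10.01 ± 0.45 in the pools (SD). The iodide symporter Slc5a5 differed by -0.67, but its probe set was dim in both groups, between 6.5 and 6.81 in PTC and between 7.06 and 7.63 in the pools. Pendrin (Slc26a4), an anion exchanger of the follicular cell, moved the other way. It was 8.69, 7.05, 6.46 and 5.56 in PTC, against 4.55 to 5.23 in the pools. Every tumour was above every pool, and the tumours were spread widely among themselves.

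The transcription factors of the thyroid lineage did not move together. Pax8 fell by 1.61 (9.26 to 10.19 in PTC, against 11.12 to 11.98 in the pools), and Hhex was higher by 0.69, with no overlap in either gene. Nkx2-1 was not called (6.15 ± 0.07 in PTC, 6.36 ± 0.21 in the pools, adjusted p = 0.15), but its probe set was dim in both groups. The cadherin Cdh16, a surface protein of follicular cells, was 9.31 ± 0.39 in PTC and 12.42 ± 0.27 in the pools. The thyrotropin receptor Tshr differed by -1.75 on the probe set used and by -0.06 on its other probe set, so its size depends on the probe set. Foxe1 was not analysed here.

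Several of the largest changes lay outside thyroid function. Krt20, a keratin of gut and urothelial surfaces, was 10.78, 10.71, 11.79 and 11.17 in PTC, against 4.26 to 5.08 in the pools, a difference of 6.40 ± 0.21 (SE, limma adjusted p = 9.33e-09). Vash2, a secreted promoter of vessel growth, averaged 12.05 ± 0.24 in PTC and 6.11 ± 0.52 in the pools. Fetub, a protease inhibitor best known from liver, differed by 5.79. Further leading rises were in secreted proteins and a kinase. Fmod, a proteoglycan that binds collagen fibrils, differed by 5.67, and by 3.39 to 3.84 on its 5 other probe sets. Grem1, an antagonist of bone morphogenetic proteins, was 11.61, 11.59, 12.63 and 11.84 in PTC, against 5.63 to 8.15 in the pools. Nrk, of the germinal centre kinase family, differed by 6.19, and by 1.77 to 3.84 on its other 2 probe sets.

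Among the falls, Agr3, a protein disulfide isomerase of ciliated and secretory cells, was 4.17, 5.09, 4.18 and 4.64 in PTC, against 9.59 to 10.50 in the pools. The folate receptor Folr1 fell by 4.35, with no overlap. Asgr1, the asialoglycoprotein receptor subunit, and Tmem45b differed by -4.09 and -4.18. In both of these genes pool 5 was the lowest pool, at 9.76 and 8.90 while the pool medians were 11.87 and 11.08. The plot of single genes shows the arrays of 16 genes side by side.

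**Figure D2:**
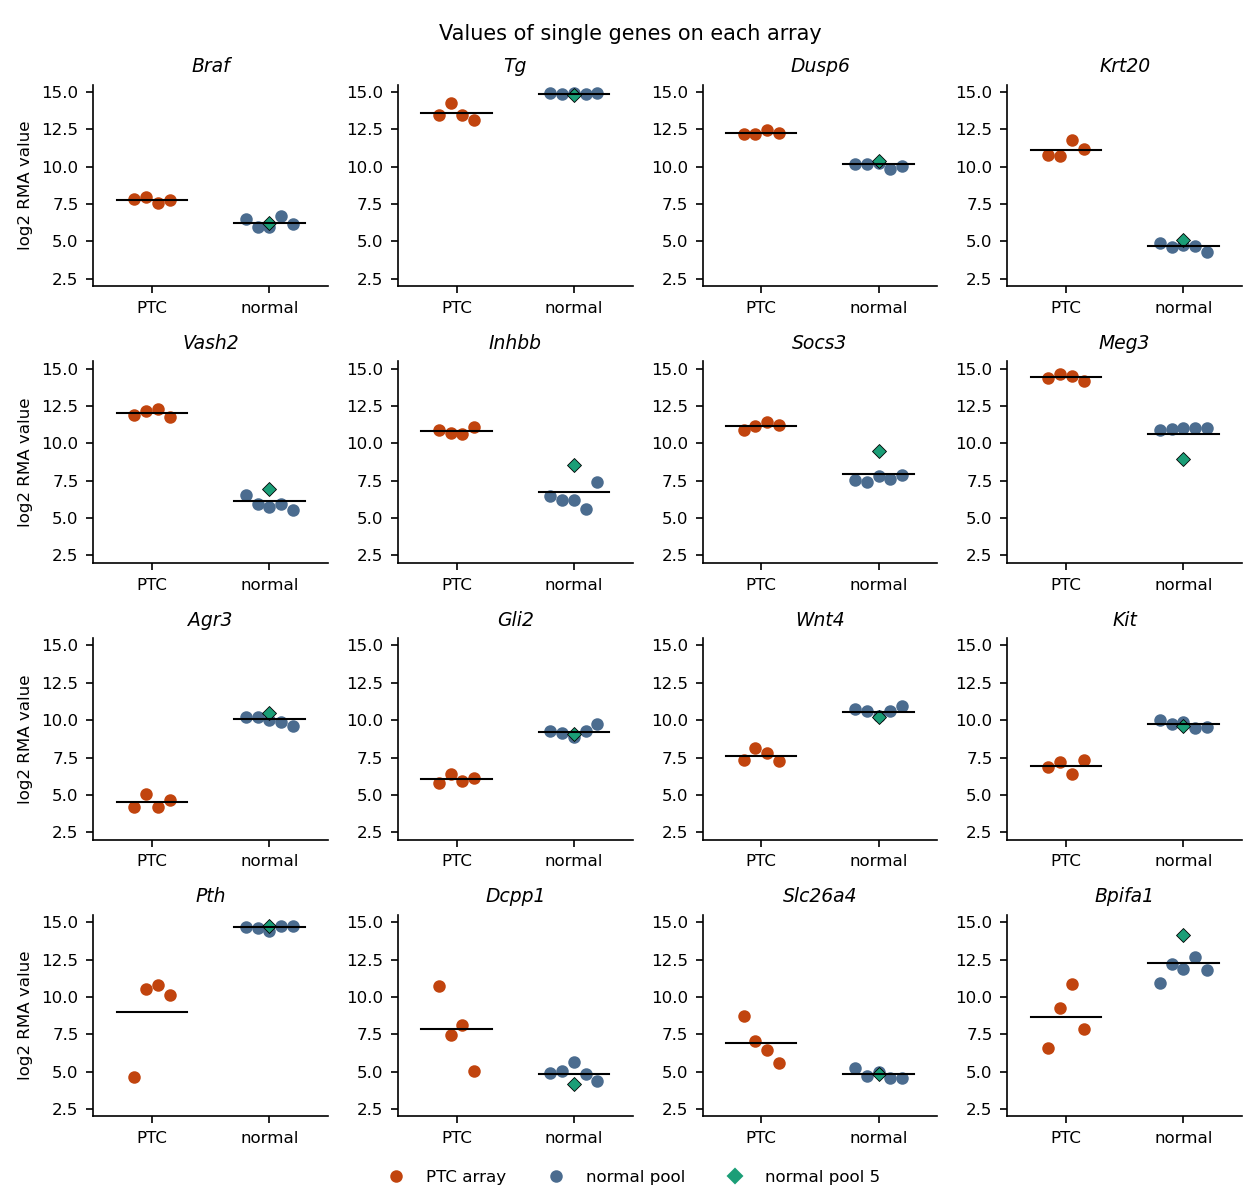
Each panel is 1 gene, with its log2 value on each PTC array at the left and on each normal pool at the right; horizontal lines are group means and the diamond is pool 5. Krt20, Vash2, Agr3, Gli2 and Wnt4 form tight separate groups, while Pth, Dcpp1, Slc26a4 and Bpifa1 spread among the PTC arrays.

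Genes switched on by the MAPK cascade were mostly higher. Of 17 measured, 13 were higher and 1 lower, with a median of 1.34. Dusp6, a phosphatase that dampens ERK, was 12.18, 12.17, 12.43 and 12.28 in PTC, against 9.83 to 10.38 in the pools. Etv4, a transcription factor induced by ERK, differed by 2.46 ± 0.13 (SE), and cyclin D1 (Ccnd1) by 3.41. The feedback inhibitors divided. Spred1 was higher by 2.38, while Spry1 fell by 0.33, with 8.74 to 9.12 in PTC and 9.19 to 9.56 in the pools (adjusted p = 0.0178, and 0.0587 without PTC 1). Etv5 was not called (adjusted p = 0.121). Immediate early genes followed in part. Of the 18 in that list 7 were higher and 1 lower (11 higher without pool 5). Egr1 was 12.36, 12.26, 12.73 and 12.43 in PTC, against 9.38 to 10.48 in the pools. Within the Jun family, Junb was higher by 2.24 and Jun fell by 1.47, and neither overlapped.

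Ligands of the EGF receptor moved in both directions. Egf itself differed by -0.96, at 5.37 to 5.78 in PTC, against 6.18 to 6.94 in the pools. Ereg (epiregulin) was 11.39, 11.25, 12.19 and 11.85 in PTC, against 3.78 to 7.2 in the pools, a difference of 6.94. Hbegf, another ligand of that receptor, was 9.81, 9.84, 10.66 and 10.76 in PTC, against 7.70 to 8.07 in the pools, and its partner receptor Erbb2 was higher by 1.38. Nrg4, a neuregulin made by brown fat, fell by 2.33, with pool 5 at 5.44 and the pool median at 7.77. Over the 12 genes of this family 5 were higher and 4 lower, beside 21.3% higher and 24.5% lower over all genes. Among 27 other receptor tyrosine kinases and ligands 9 were lower and 5 higher, the higher share being below that of all genes. Kit, the stem cell factor receptor, was 6.89, 7.19, 6.41 and 7.33 in PTC, against 9.50 to 10.03 in the pools, though its other probe set differed by -0.32. Fgf1 fell by 2.20 and the receptor Fgfr2 fell by 2.10, each with a second probe set at -2.67 and -2.01. Igf1r, the receptor of insulin-like growth factors, was the largest rise of that list, at 1.46, with its other probe set at 0.49.

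The axis of interleukin-6 and Stat3 was among the higher groups, with 8 of 13 genes higher and 2 lower (median 0.87). Socs3, a Stat3 target that shuts the pathway, was 10.93, 11.16, 11.43 and 11.21 in PTC, against 7.42 to 9.51 in the pools. The cytokine receptor Osmr was higher by 1.92 (0.51 on its other probe set) and the cytokine Il6 by 1.90, with Il6 dim in both groups (5.80 ± 0.37 in PTC, 3.91 ± 0.21 in the pools). Lifr, the receptor for leukaemia inhibitory factor, fell by 2.14 and was at 8.96 to 9.2 in PTC, against 10.84 to 11.48 in the pools, with -2.93 to -0.51 on its 2 other probe sets. Its ligand Lif was higher by 2.21 on the probe set used but by 0.02 on the other. Of 19 genes of the TGF-beta and activin pathway, 11 were higher and 1 lower (median 0.48). The activin subunit Inhbb was 10.87, 10.72, 10.65 and 11.11 in PTC, against 5.61 to 8.53 in the pools, with a second probe set at 0.34. The other activin subunit, Inhba, differed by 1.56 and Tgfb3 by 1.46.

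Developmental signalling leaned down or was mixed. Of 13 Hedgehog genes 6 were lower and the rest were not called. Gli2, the main activator of that pathway, was 5.76, 6.40, 5.95 and 6.10 in PTC, against 8.84 to 9.74 in the pools, and its other probe set differed by -1.75. The pathway targets Gli1 and Ptch1 differed by -0.40 and -0.37. The Ptch1 call (adjusted p = 0.0377) was lost when any array but pool 4 or pool 6 was left out, with an adjusted p of up to 0.0845. In the Wnt list, 5 of 23 genes were higher and 5 lower, shares close to those of all genes. Wnt4 and the Wnt inhibitor Nkd1 were the lowest of them, at -2.93 and -2.34, both with no overlap. Of 16 Notch genes 6 were lower and 3 higher, the higher share being below that of all genes (21.3%). Nrarp, a feedback inhibitor of Notch, was higher by 1.88 (0.85 on its other probe set), while Hes1, another target, was not called (adjusted p = 0.214). In the retinoid list 6 of 17 were higher and 5 lower (3 lower without PTC 2 or without PTC 3), the lower share being near that of all genes (24.5%). Clock genes leaned down, with 7 of 14 lower and 1 higher (median -0.70). Hlf fell by 2.32, Dbp fell by 1.73 and Nr1d1 fell by 1.33, whereas Cry1 was higher by 0.99. The hour at which tissue was taken is not given, so time of day and group cannot be told apart.

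In the imprinted Dlk1 and Meg3 locus, Dlk1, Meg3 and Rian were higher, and other genes of the locus are not described here. The maternally expressed RNA Meg3 was 14.40, 14.62, 14.52 and 14.18 in PTC, against 8.97 to 11.03 in the pools. The lowest pool was pool 5, and the 4 other probe sets of Meg3 differed by 2.60 to 5.12. Rian, a second noncoding RNA of the locus, was 12.24 ± 0.17 in PTC and 7.64 ± 0.59 in the pools (SD), and Dlk1 differed by 7.72. Igf2r, a maternally expressed gene elsewhere in the genome, was higher by 1.88, and Sgce, paternally expressed, fell by 1.16. Igf2 was not called (adjusted p = 0.0963). Over the 15 imprinted genes 5 were higher and 3 lower (5 lower without pool 5), beside 21.3% higher and 24.5% lower over all genes.

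Genes of cell division rose throughout. All 23 measured mitosis genes were higher in PTC, 19 of them by at least 2-fold, with a median of 1.30. Mki67, the usual marker of cycling cells, was 9.59, 8.87, 8.46 and 9.65 in PTC, against 5.91 to 8.56 in the pools. The groups touched only through pool 5, which was the highest pool and above PTC 3. Cdk1, the kinase that starts mitosis, was 8.09 ± 0.37 in PTC and 6.12 ± 0.66 in the pools, and Cdc20, which activates the anaphase-promoting complex, was 9.32 ± 0.32 in PTC and 7.27 ± 0.64 in the pools. The 2 other probe sets of Cdc20 differed by 0.58 and 1.53. The survivin gene Birc5 had the largest difference of the list, at 2.25. On the scale of the list mean, with the pools averaging 0, the tumours lay at 1.10 to 1.87, against -0.37 to 0.74 in the pools. The highest pools were pool 5 at 0.74 and pool 3 at 0.51. Pool 3 was also the only one with Rag1, an enzyme of developing lymphocytes, well above the others (9.86, with a pool median of 3.50).

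Replication genes rose less. Of 22 measured, 16 were higher and 1 lower (median 0.59). The licensing factor Cdt1 was 9.98, 10.05, 9.84 and 9.94 in PTC, against 7.62 to 8.84 in the pools, with 0.14 and 1.40 on its 2 other probe sets, and Mcm5 of the replicative helicase differed by 1.58. Rrm2, a ribonucleotide reductase subunit, differed by 2.03 (0.35 and 1.90 on its 2 other probe sets), with pool 5 inside the range of the tumours. Of 16 regulators of G1 and inhibitors of the cycle, 7 were higher, 4 lower and 5 not called, the lower share being close to that of all genes (24.5%). Cdkn2b (p15) was 9.28, 9.14, 9.16 and 9.47 in PTC, against 6.86 to 7.83 in the pools, and Cdkn1a (p21) was higher by 2.02. Rb1, which holds cells in G1, fell by 1.23 (8.17 to 8.44 in PTC, 9.25 to 9.76 in the pools).

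Promoter windows of the mitosis genes were searched for the cell cycle homology region (CHR, TTTGAA) and the CCAAT box, the pair of elements known from late cell cycle promoters. The windows run from 250 bases before to 50 after the RefSeq gene start (GRCm38.p6), and both strands were searched. CHR letters were present in 15 of 20 windows of this list (75%), against 17.9% of all 32851 windows. CCAAT was present in 17 of 20 (85%), against 37.4% of all. A match is a description of letters and not a bound site. The 250 bases before the start of 3 of these genes are shown, because their differences are the largest among the genes holding the letters, with CHR letters in capitals. They lie at chr7:135716380-135716629 (minus strand) for Mki67, chr4:118437344-118437593 (minus strand) for Cdc20 and chr10:69352913-69353162 (minus strand) for Cdk1.
Mki67: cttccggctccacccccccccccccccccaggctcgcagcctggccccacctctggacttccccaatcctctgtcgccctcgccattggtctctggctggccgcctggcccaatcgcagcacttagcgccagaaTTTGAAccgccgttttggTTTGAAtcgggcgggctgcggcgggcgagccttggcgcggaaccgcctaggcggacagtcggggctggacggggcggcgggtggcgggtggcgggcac
Cdc20: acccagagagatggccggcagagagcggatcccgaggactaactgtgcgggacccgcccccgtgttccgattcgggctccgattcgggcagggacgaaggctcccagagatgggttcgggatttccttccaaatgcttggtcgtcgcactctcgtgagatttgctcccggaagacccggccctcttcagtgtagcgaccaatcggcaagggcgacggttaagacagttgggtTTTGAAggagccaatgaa
Cdk1: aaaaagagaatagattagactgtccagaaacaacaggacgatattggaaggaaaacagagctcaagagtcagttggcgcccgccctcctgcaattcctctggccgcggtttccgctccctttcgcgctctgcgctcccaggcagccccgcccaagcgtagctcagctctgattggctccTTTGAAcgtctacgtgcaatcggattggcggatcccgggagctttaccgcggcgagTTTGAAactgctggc

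Outside the list, genes holding the letters were not higher more often than all genes. Of 1507 tested genes outside the list with a CHR in a window, 20.8% were higher, beside 21.4% of all genes with a window. With CHR and CCAAT in the same window, 20% of 581 genes outside the list were higher. The CHR letters are short and stood in 12.9% of the windows of tested genes. These counts therefore cannot separate working elements from other matches.

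Genes of mitochondrial energy metabolism were lower. All 22 respiratory chain genes were lower in PTC, each with the 4 tumours below all 6 pools, and their median was -0.98. Ndufa1, a subunit of complex I, was 12.30, 12.24, 12.21 and 12.17 in PTC, against 13.48 to 13.80 in the pools. The smallest difference was that of another complex I subunit, Ndufa2, at -0.21, a call that was lost without any single PTC array or without pool 2, 3 or 6 (adjusted p up to 0.109). Cytochrome c (Cycs) fell by 1.28, and its 2 other probe sets differed by -1.64 and -1.32. All 16 genes of the tricarboxylic acid cycle were lower as well (median -1.06). Idh3a, a subunit of isocitrate dehydrogenase, was 10.10, 9.98, 10.35 and 9.98 in PTC, against 10.62 to 12.22 in the pools. Pyruvate carboxylase (Pcx) fell by 2.34, but its 4 other probe sets ranged from -2.55 to -0.10. Of 17 genes of fatty acid oxidation 14 were lower and 3 were not called, at a median of -1.31. Ppargc1a, a coactivator that drives mitochondrial genes, was 7.59, 8.10, 7.53 and 7.61 in PTC, against 9.65 to 10.33 in the pools.

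Brown fat is rich in mitochondria, and its markers moved the same way. All 14 adipocyte and brown fat genes were lower, all by at least 2-fold, with a median of -2.42. Ucp1 was 4.84, 4.93, 4.57 and 6.01 in PTC, against 5.60 to 12.18 in the pools, and Cidea, a lipid droplet protein of brown fat, fell by 4.70. Without pool 5 their differences were -6.31 for Ucp1, where the whole comparison gave -5.34, and -5.44 for Cidea. The mean of the adipocyte list lay at -2.94 to -2.26 in PTC and at -1.92 in pool 5, with 0.28 to 0.46 in the other 5 pools. In pool 5 the respiratory chain list was at -0.39, against -0.98 to -0.90 in PTC. The tricarboxylic acid list stood at -0.64 in that pool, against -1.20 to -1.07 in PTC. For fatty acid oxidation it was -0.80, against -1.27 to -1.14 in PTC. So the pool with little brown fat signal lay between the tumours and the other pools on all these lists. Without pool 5, 22 respiratory chain genes and 16 of the tricarboxylic acid cycle were lower. Pool 5 was the pool nearest to the tumours on both lists, so leaving it out cannot show the part of fat. How much of the falls the amount of fat accounts for was not tested. In bulk tissue, fewer cells of a type and less RNA per cell cannot be told apart.

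**Figure D3:**
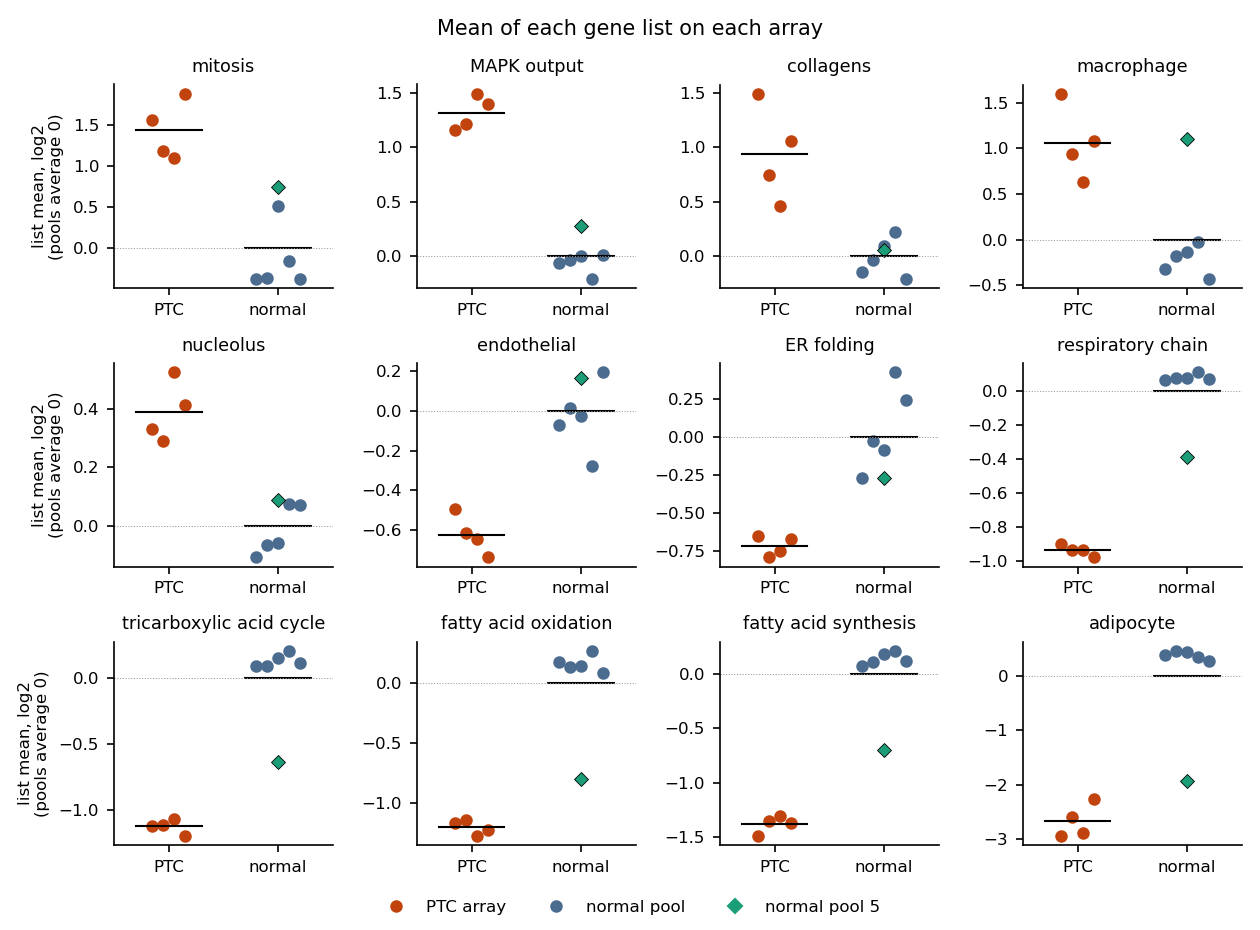
Each panel is 1 gene list, with the mean of its measured genes on each array (log2, the mean of the 6 pools set to 0), PTC at the left and normal pools at the right; lines are group means and the diamond is pool 5. Pool 5 lies between the tumours and the other pools for the respiratory chain, tricarboxylic acid, fatty acid and adipocyte lists, and within the tumours for the macrophage list.

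Fatty acid synthesis showed the same split by pool, with a list mean of -0.70 in pool 5 and 0.07 to 0.21 in the other pools. Of 17 fatty acid synthesis genes 14 were lower and 3 were not called. Scd1, which makes monounsaturated fatty acids, was 9.13, 9.61, 9.52 and 10.37 in PTC, against 12.76 to 14.50 in the pools, with pool 5 the lowest of them. Thrsp, a lipogenic nuclear protein, fell by 5.02, Dgat2, the last enzyme of triglyceride synthesis, fell by 3.89 (-2.12 on its other probe set), and Acacb fell by 2.49. Fatty acid synthase itself (Fasn) was not called. It was 11.68 to 11.84 in PTC, which lies above pool 5 (10.61) and below the pool median of 12.68. Cholesterol synthesis moved less, with 7 of 15 genes lower and 8 not called (median -0.37), the largest change being that of Pmvk, which fell by 1.00. There pool 5 was not apart, with a list mean of -0.09 inside the range of the other pools (-0.16 to 0.21).

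Protein folding in the endoplasmic reticulum was also lower, a group with a large role in cells that secrete as much protein as the thyrocyte. Of 24 genes measured 16 were lower and 8 were not called (median -0.70). Sdf2l1, a partner of the chaperone BiP, was 9.17, 8.84, 8.44 and 8.64 in PTC, against 10.16 to 11.89 in the pools. Creld2 fell by 1.80, Manf, a secreted stress-response factor, fell by 1.45, and Hspa5 (BiP) fell by 0.88, each with no overlap. The membrane chaperone calnexin (Canx) was 12.03 ± 0.25 in PTC and 12.96 ± 0.09 in the pools. P4hb, the most familiar disulfide isomerase, was not called, although its 4 tumour values (12.85 to 12.90) lay just above the pools (12.49 to 12.82). For this list pool 5 did not lie alone. The list mean was -0.79 to -0.65 in PTC, and the lowest pools were pool 1 and pool 5, both at -0.27.

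The endoplasmic reticulum stress element (ERSE, which is CCAAT and CCACG with 9 bases of any kind between them), to which ATF6 and NF-Y bind and which includes the CCAAT box letters, was found in 7 of 21 windows of this list (33.3%), against 39 of all 32851 windows (0.119%). The 7 genes holding it are Creld2, Dnajc3, Canx, Hspa5, Hsp90b1, Calr and Pdia6, and all of them were called lower, Pdia6 at -0.38 only while PTC 2, 3 and 4 and pools 2 and 6 were all included (adjusted p = 0.0374, and up to 0.0975 without one of them). The upstream 250 bases of 4 of them are shown with the element in capitals, so that its place can be seen on either strand. The windows are chr15:88819396-88819645 (plus strand) for Creld2, chr14:118937682-118937931 (plus strand) for Dnajc3, chr11:50325674-50325923 (minus strand) for Canx and chr2:34771840-34772089 (plus strand) for Hspa5. In Creld2 the letters stand on the opposite strand, so the reverse complement is in capitals.
Creld2: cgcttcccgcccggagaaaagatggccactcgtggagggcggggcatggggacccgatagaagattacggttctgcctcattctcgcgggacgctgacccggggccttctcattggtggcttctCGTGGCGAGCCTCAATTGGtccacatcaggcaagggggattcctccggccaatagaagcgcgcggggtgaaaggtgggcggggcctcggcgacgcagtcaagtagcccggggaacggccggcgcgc
Dnajc3: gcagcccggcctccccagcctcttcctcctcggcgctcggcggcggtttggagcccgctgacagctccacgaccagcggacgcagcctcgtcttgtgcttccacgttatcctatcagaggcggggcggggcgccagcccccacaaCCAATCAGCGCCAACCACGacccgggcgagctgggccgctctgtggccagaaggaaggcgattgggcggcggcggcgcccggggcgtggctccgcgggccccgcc
Canx: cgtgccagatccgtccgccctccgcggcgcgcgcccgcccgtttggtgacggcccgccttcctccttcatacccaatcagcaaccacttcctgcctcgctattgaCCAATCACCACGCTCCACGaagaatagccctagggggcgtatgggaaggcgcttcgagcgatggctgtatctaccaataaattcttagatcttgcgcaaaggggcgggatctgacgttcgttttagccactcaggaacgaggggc
Hspa5: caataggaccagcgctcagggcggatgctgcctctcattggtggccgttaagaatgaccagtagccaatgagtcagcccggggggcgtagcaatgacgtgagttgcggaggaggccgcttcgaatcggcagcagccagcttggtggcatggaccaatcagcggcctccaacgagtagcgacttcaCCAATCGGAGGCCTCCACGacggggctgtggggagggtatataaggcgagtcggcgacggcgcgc

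Outside the list 11 tested genes held the element, of which 4 were lower and 1 higher. Other motifs were set against their lists. The NRF1 motif (GCGCA, any base, then GCGC) was in 4 of 16 respiratory chain windows (25%), against 4.6% of all windows and 7.96% of windows of tested genes, and 31.2% of the 921 other genes with it were lower, beside 25.1% of all genes with a window. The AP-1 motif (TGANTCA) was in 1 of 11 windows of MAPK output genes, against 7.81% of all.

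**Figure D4:**
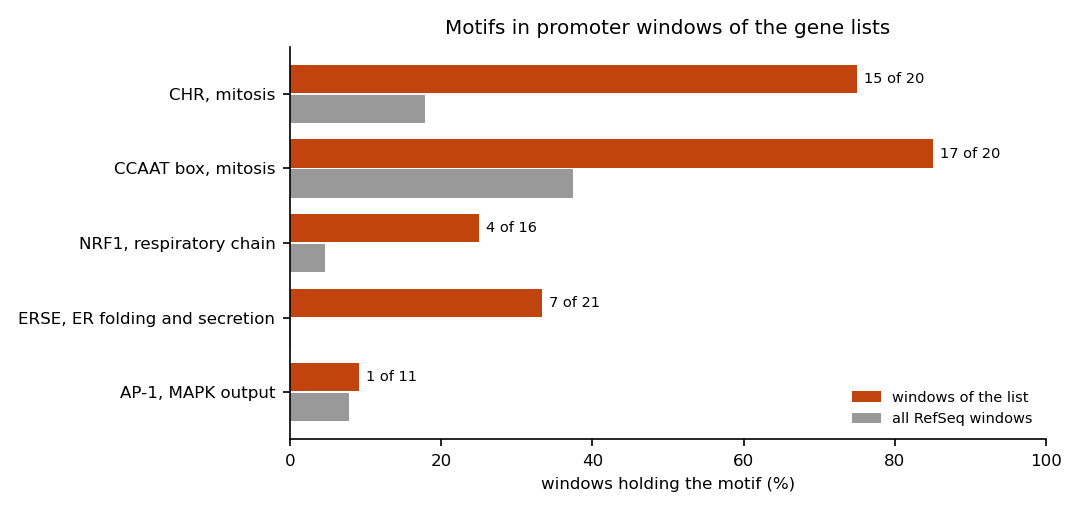
Bars give the share of promoter windows that hold each motif (percent), for the windows of the named gene list in colour and for all RefSeq windows in grey; the counts beside the bars are windows of the list. The CHR and CCAAT shares of the mitosis list and the ERSE share of the folding list stand clear of those of all windows, while the AP-1 share of the MAPK list does not.

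Glycolysis and the hypoxia response did not rise as a group. Of 22 genes 9 were lower and 6 higher (median -0.21), beside 24.5% lower and 21.3% higher over all genes. The hypoxia-induced Bnip3, Egln3 and Vegfa fell by 1.82, 1.66 and 1.43, each with no overlap, and Vegfa was 9.67, 10.14, 10.30 and 10.01 in PTC, against 11.30 to 11.78 in the pools. The glucose transporter Slc2a1 went the other way, at 11.23, 11.40, 11.85 and 11.64 in PTC, against 10.31 to 10.70 in the pools. Aldoc and Ndrg1 were higher by 1.04 each. Among 17 genes of nucleolus and ribosome production 13 were higher and 1 lower, all by under 2-fold (median 0.42). Nop56, of the box C/D particle, was 9.65, 9.73, 9.90 and 9.49 in PTC, against 8.80 to 9.33 in the pools. Polr1a, the largest subunit of RNA polymerase I, differed by 0.82. Of 15 ribosomal protein genes 5 were higher, none by 2-fold (3 without PTC 2, 2 without PTC 4).

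Amino acid genes were mixed, with 7 of 17 higher and 2 lower. The largest rise, that of the neutral amino acid carrier Slc1a4 at 1.88, was 0.03 to 0.10 on its 2 other probe sets. Asparagine synthetase (Asns) fell by 1.11, and fell by 1.09 on its other probe set. Antioxidant genes leaned down, with 10 of 19 lower and 2 higher (median -0.37). The mitochondrial superoxide dismutase Sod2 was 10.47, 10.29, 10.49 and 10.14 in PTC, against 11.44 to 12.12 in the pools, with -1.39 to -0.36 on its 2 other probe sets, while haem oxygenase Hmox1 was higher by 0.99.

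**Figure D5:**
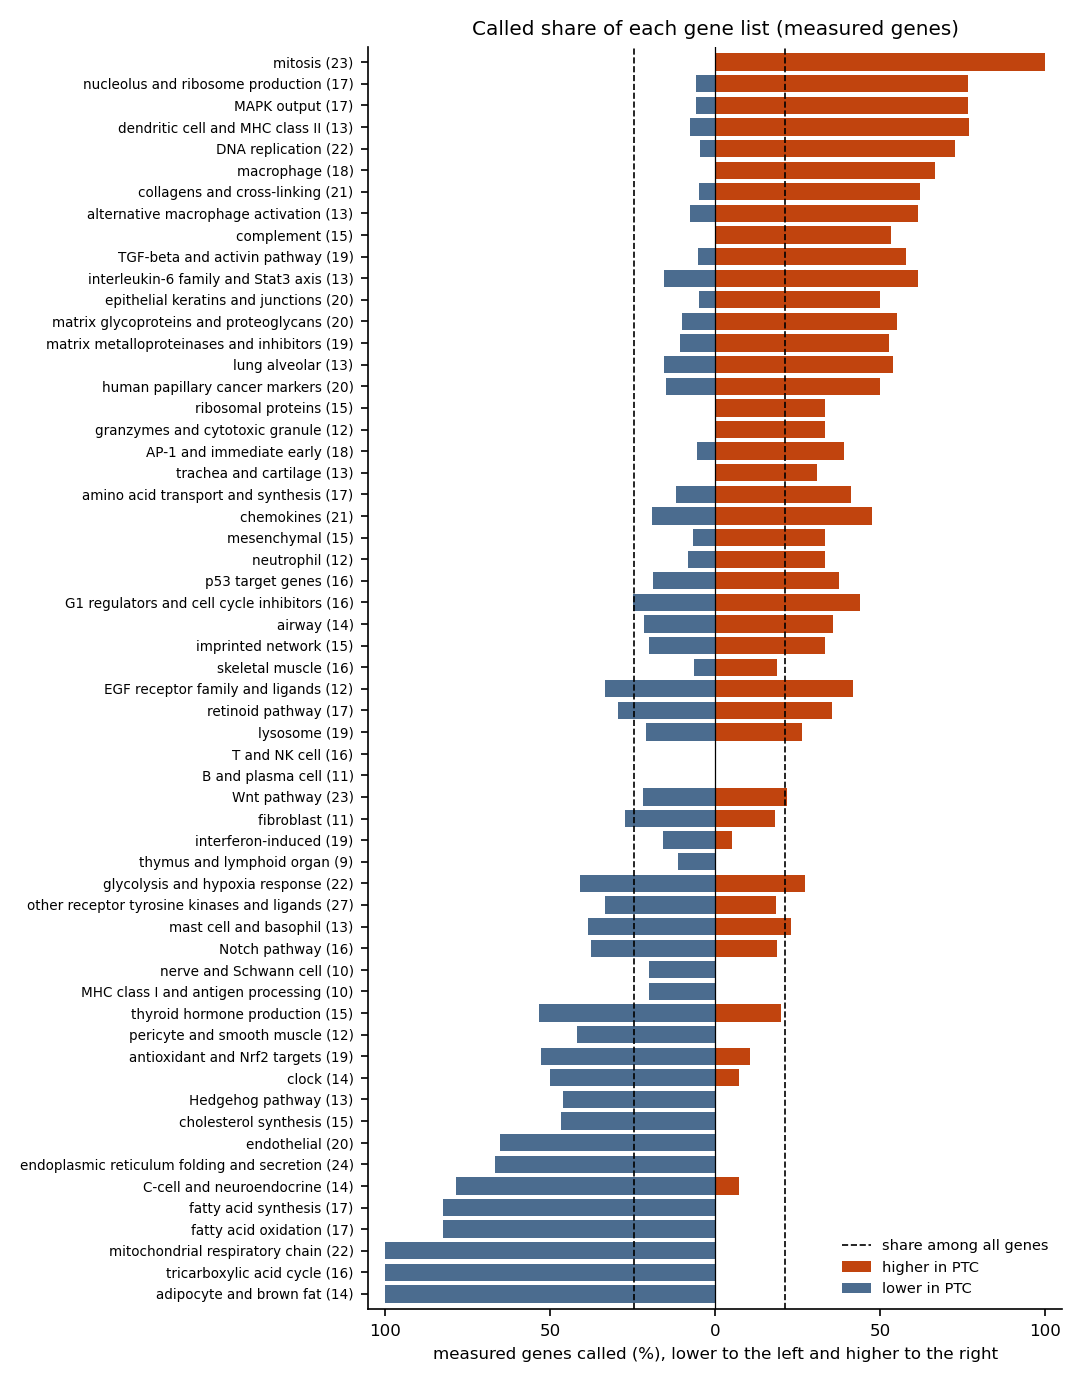
Bars give the percent of measured genes of each list (number in brackets) that limma called higher in PTC, to the right, or lower, to the left; only lists with at least 9 measured genes are drawn, and dashed lines mark the shares over all genes (21.3% and 24.5%). Mitosis stands at the top and the adipocyte, tricarboxylic acid and respiratory chain lists at the bottom, while the T and NK cell and B and plasma cell lists have no called gene.

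Genes of the extracellular matrix were higher, with a wide spread among tumours. Of 21 collagen and cross-linking genes 13 were higher and 1 lower (median 0.87). Col1a1, the main fibrillar collagen chain, was 11.47, 9.85, 9.27 and 10.17 in PTC, against 7.36 to 7.88 in the pools, a difference of 2.64 ± 0.33 (SE, limma adjusted p = 8.05e-05). PTC 1 was the highest tumour and PTC 3 the lowest in Col1a1, in Fn1 (13.44 and 11.68) and in Postn (13.15 and 11.83). The list mean lay between 0.46 in PTC 3 and 1.49 in PTC 1, with -0.21 to 0.22 in the pools. Timp1, an inhibitor of metalloproteinases, was 11.20, 10.23, 10.03 and 10.92 in PTC, against 5.79 to 8.93 in the pools. Fibroblast markers did not rise as a list, with 2 of 11 higher and 3 lower, shares close to those of all genes. Cartilage genes split. Comp and Col9a1 were higher by 4.64 and 4.15 with no overlap, though the other probe set of Col9a1 differed by 1.29, and 4 of 13 genes of that list were higher, the others not called.

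Macrophage genes were higher, and pool 5 shared the change. Of 18 genes 12 were higher and 6 not called (median 1.01), with 16 higher without pool 5 and 5 higher without PTC 1. The list mean was 1.60, 0.94, 0.63 and 1.08 in PTC, against 1.10 in pool 5 and -0.43 to -0.03 in the other pools. Cd68 was 9.65, 9.13, 8.58 and 8.88 in PTC, while pool 5 was at 9.11 and the pool median at 7.09. On the list mean, genes of alternative activation stood further from that pool, at 1.24 to 2.17 in PTC and 0.83 in pool 5. Chil3, a chitinase-like protein, was 11.34, 10.36, 11.11 and 9.55 in PTC, against 3.65 to 6.19 in the pools. Il4ra, the receptor of interleukin-4, was higher by 2.13 on the probe set used and by 0.44 to 0.92 on its other 2. Arg1 and the chemokine Ccl17 were higher by 2.51 and 3.79, with no overlap. Pool 5 came close in both, at 6.35 and 8.84, where the lowest tumours were at 6.56 and 9.03. Of the 13 genes in that list 8 were higher and 1 lower (median 1.5).

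Lymphocyte genes gave no call. None of 16 T and NK cell genes passed limma (median -0.12), with 1 higher at an unadjusted p under 0.05, and the values of Cd3e were 6.62 ± 0.22 in PTC and 6.51 ± 0.25 in the pools. None of 11 B and plasma cell genes passed limma either, with 1 higher and 2 lower at an unadjusted p under 0.05. Single pools stood apart on both lists. The T and NK list mean was 0.72 in pool 3, -0.38 to 0.25 in the other pools and -0.45 to 0.33 in PTC. For B and plasma cells it was 0.81 in pool 5, -0.43 to -0.02 in the other pools and -0.27 to 0.71 in PTC. Such a spread limits what the missing calls can show. Of 13 genes of dendritic cells and MHC class II 10 were higher and 1 lower. Of 10 MHC class I genes 2 were lower, a share below that of all genes (24.5%). Beta-2 microglobulin (B2m), among the lower, was 12.86, 12.44, 12.03 and 12.52 in PTC, against 13.05 to 13.49 in the pools. Interferon-induced genes were mostly not called, with 3 of 19 lower and 1 higher, shares below those of all genes. Rsad2 fell by 1.73 (-2.08 to -0.69 on its 2 other probe sets) and Ifit2 fell by 1.40, while Mx1 was higher by 1.28. Of 21 chemokines 10 were higher and 4 lower, the lower share being below that of all genes. Cxcl15, known from mouse lung, was 10.76, 8.97, 8.29 and 8.63 in PTC, against 5.17 to 6.19 in the pools. Ccl11, which attracts eosinophils, fell by 2.86. Of 12 granzyme and cytotoxic granule genes 4 were higher (2 without PTC 4), and by 2-fold or more only Gzmd and Gzme. These are close relatives in sequence, so their separate values are uncertain.

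Endothelial, parathyroid and C-cell genes were lower, and other neighbouring tissues were mixed. Of 20 endothelial genes 13 were lower and 7 not called (median -0.68). Emcn, a surface sialomucin of small vessels, was 8.30, 8.11, 8.29 and 8.11 in PTC, against 9.65 to 10.28 in the pools, and the VEGF receptor Kdr fell by 1.31. Smooth muscle myosin Myh11 fell by 2.01 on the probe set used and fell by 0.30 on its other one. Of 10 nerve and Schwann cell genes 2 were lower and 8 not called (median -0.15), a share below that of all genes, with S100b, found in Schwann cells and fat, the largest at -3.85. Of 16 skeletal muscle genes 3 were higher and 1 lower, shares below those of all genes. All 4 parathyroid genes were lower, at a median of -5.23. Parathyroid hormone (Pth) was 4.65, 10.51, 10.77 and 10.13 in PTC, against 14.42 to 14.78 in the pools. PTC 1 was thus far below the other tumours, which themselves lay below every pool. The calcium receptor Casr differed by -1.03. Of 14 C-cell and neuroendocrine genes 11 were lower and 1 higher (median -2.07). Pool 5 was lower than the other pools there too, with a list mean of -1.20, while PTC lay at -2.72 to -2.24. The share of the glands taken up by each of these tissues is not known, and its part in the results was not tested.

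Genes used as markers of human papillary cancer were higher in 10 of 20 and lower in 3 (median 1.03), with pool 5 again high. The protease inhibitor Slpi was 11.13, 10.20, 10.72 and 9.81 in PTC, against 6.61 to 7.58 in the pools. Hmga2, a chromatin protein of embryonic tissue, was higher by 3.31, and by 3.05 to 4.12 on its other 2 probe sets. Galectin-3 (Lgals3) and Krt19 overlapped through pool 5. Lgals3 was 12.55, 12.34, 12.18 and 12.83 in PTC, against 13.18 in pool 5 and a pool median of 8.96 (adjusted p = 0.0223, and 0.0578 without PTC 4), a difference of 2.57, or 3.23 without pool 5. Of 13 lung alveolar genes 7 were higher, each by at least 2-fold, and 2 lower (median 1.89). Sftpa1, a surfactant protein, was 14.34, 14.44, 14.29 and 14.49 in PTC, against 4.50 to 7.18 in the pools. The surfactant proteins Sftpd and Sftpb were higher by 7.94 and 6.75, with no overlap. The peptidase Napsa and the phosphate carrier Slc34a2 were higher by 1.89 and 3.02. Slc34a2 overlapped through pool 5, at 9.88, where PTC 4 was at 9.86. Sftpc, specific to type II cells of the lung, was not called, at 6.43 ± 0.37 in PTC and 6.42 ± 0.28 in the pools. Among 14 airway genes 5 were higher and 3 lower, beside 21.3% higher and 24.5% lower over all genes. The mucin Muc5b was 9.33, 9.0, 9.15 and 9.59 in PTC, against 5.85 to 6.52 in the pools, while Bpifa1, secreted by the upper airway, fell by 3.65.

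The tumours were close to each other in most genes, and the SD among PTC arrays averaged 0.188 over all genes, against 0.237 among the pools. The pools mix WT and Cre titles. Among the WT-titled pools alone the lowest correlation of 2 arrays was 0.989, against 0.984 among the PTC arrays. The called genes with the largest SD among PTC were Pth and 5 others. The Pth difference of -5.66 was -4.20 without PTC 1. Dcpp1, a salivary gland protein, was 10.70, 7.44, 8.14 and 5.04 in PTC, against 4.18 to 5.62 in the pools, and its difference of 3.01 was 2.05 without PTC 1 and 3.94 without PTC 4. Bpifa1 ran from 6.61 in PTC 1 to 10.84 in PTC 3, with 10.96 to 14.17 in the pools. Its difference of -3.65 was -2.98 without PTC 1 and -4.39 without PTC 3. Myl2, of slow and heart muscle, was 6.95, 9.95, 8.99 and 9.60 in PTC, against 4.62 to 7.45 in the pools, a difference of 2.78, or 3.43 without PTC 1. Myh4, of fast muscle, was 11.11, 10.58, 10.71 and 7.96 in PTC, against 10.72 to 13.31 in the pools. Its difference of -1.74 was -1.03 without PTC 4 (adjusted p = 0.115), and the call was also lost without PTC 2, PTC 3 or any one pool but pool 1. Gzmd was 6.99, 4.24, 4.29 and 5.94 in PTC, against 2.80 to 3.17 in the pools.

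Differences were not bound to a chromosome. Chromosome medians lay between -0.08 and 0.02, and the share of genes called with at least 2-fold between 10.1% and 16.7%. Gene families named by a common symbol root, with at least 15 members tested, gave a similar picture to the lists. The 22 Cox genes, mostly subunits and assembly factors of cytochrome c oxidase, had a median of -0.59 with 14 lower and 8 not called. The mitochondrial ribosomal proteins leaned down less, with 27 of 47 Mrpl genes lower (median -0.30) and 14 of 27 Mrps genes (median -0.26). Of 17 Tspan genes, which encode tetraspanins, 7 were lower by at least 2-fold and 1 higher. The Ccl chemokines had a median of 0.65 and the 36 Col genes 0.42, with 13 of them higher by at least 2-fold and 3 lower.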

How the data were processed

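RNA of 4 PTC samples and 6 pools of normal thyroid glands had been hybridised after biotin labelling, with Affymetrix Mouse430A_2 as the array, per the labels' protocols. The authors' deposited table holds log2 values, 1 for each probe set and array, and the submitters' processing notes name RMA and Partek without versions. RMA corrects background, quantile-normalizes and summarises probes, so no detection call or scanner signal entered here, and a uniform shift between arrays cannot be seen. The platform annotation paired 20393 of 22690 probe sets with a single symbol, 691 with more than 1 and 1606 with no symbol. RefSeq (GRCm38.p6) gave the current symbol of 20364 through the gene identifier, and 29 kept the older one. Where a gene had several probe sets, the one of highest average signal on the 24 arrays stood for it, which left 12394 genes.

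Differences were fitted with limma 3.58.1 (lmFit and eBayes, R 4.3.3) on the 10 arrays alone, with Benjamini-Hochberg adjustment over all genes. The fit was tested on simulated data. The 3′ minus 5′ signals were compared with exact two-sided permutation tests (SciPy 1.17.1). Lists are described by counts and medians, with no test of the list. No 2 of the 24 arrays were identical.

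The text names a part of the genes that the following rule gives, namely the 15 largest rises and 15 largest falls without overlap of the groups, up to 4 called genes of each list in its main direction and 2 in the other, and the 6 called genes of largest SD among PTC and the 6 genes of largest SD among the pools. Braf, Tg, Slc5a5, Met, Hgf, Dusp6, Mki67, Pax8, Nkx2-1 and Foxe1 were taken in any case. Calr, Canx, Cd3e, Dnajc3, Etv5, Fasn, Grem1, Hes1, Hmga2, Hsp90b1, Hspa5, Igf2, Lgals3, Napsa, Ndrg1, Ndufa2, P4hb, Pdia6, Ptch1, Rian, Sftpc and Vegfa were chosen after their values were seen, as were the motifs searched. The groups compared and the 62 gene lists were chosen with earlier results of these data known. The 12 alternatives covered the arrays fitted, title kind as a block, the probe set per gene, dim genes, normalization, the variance model, the threshold and single arrays left out.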

Additional observations from a re-analysis of the deposited data

Results flagged for a closer look

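Dixon's criterion, the gap to the nearest other array as a share of the group's range, was used. Single arrays far from the rest of their group were looked for in both groups, for every gene named in the text but Egf. They were found in 47 of 316 sets of arrays (14.9%), and normal pool 5 accounted for 31 of the 47. Chance gives about 1 in 20 only for independent sets of genes chosen without regard to their values. Part of these genes were chosen for a large spread or difference, or after their values were seen. The sets also come from the same arrays. The share found therefore cannot be compared with that rate.

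Pool 5 stood below the other pools in genes of fat and lipid metabolism, with Ucp1 at 5.60, Cidea at 7.11, Thrsp at 9.76, Scd1 at 12.76, Dgat2 at 9.99, Acacb at 7.56, Fasn at 10.61 and Nrg4 at 5.44. It was also lowest in Cycs (12.34), Idh3a (10.62), Sod2 (11.44), Ccl11 (8.01), Tmem45b (8.90), Meg3 (8.97) and Rian (6.45). It stood above the other pools in macrophage and signalling genes, with Mmp12 at 11.21, Cd68 at 9.11, Chil3 at 6.19, Il4ra at 8.22, Osmr at 10.28, Socs3 at 9.51, Junb at 8.48 and Inhba at 8.11. The same held for Timp1 (8.93), Postn (11.11), Fmod (7.36), Fetub (6.15), Ereg (7.2), Sftpa1 (7.18), Sftpd (9.32) and Slc34a2 (9.88).

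Pool 3 alone had high Xist (13.02) with low Eif2s3y (3.51), and it was the highest pool in Rag1 (9.86) and Cd3e (7.0). PTC 3 alone had low Xist (6.21) with high Eif2s3y (10.09), and its Pmvk value of 7.56 was a little above the next, 7.54. PTC 1 was apart in Pth (4.65), Slc26a7 (4.60), Erbb2 (8.99) and Gli1 (5.77). PTC 2 was apart in Ppargc1a (8.10), and PTC 4 in Cycs (11.41), Slc34a2 (9.86), Sftpb (14.25) and Myh4 (7.96).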

How the results depend on the processing

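With all 24 arrays in the fit limma called 1758 genes, 763 higher and 995 lower, and 1007 with at least 2-fold (467 higher), where the 10 arrays gave 5676, 2634, 3042, 1534 and 768. The test against a 1.5-fold difference (treat) called 1276 genes, 562 higher and 714 lower. Under the other settings, single arrays left out included, all counts of called genes stayed within 1.5 times, between 5007 and 6321 for the total. Leaving out 1 array gave 5007 to 6075 genes, the most without pool 5. Signs turned only in genes that were not called. Met became -0.004255 after a second quantile normalization and lay between -0.02 and 0.1 as single arrays were left out (-0.01 without PTC 1, -0.02 without PTC 2, -0.002943 without pool 4), Hgf became 0.004702 on the mean of its probe sets, Etv5 0.11 on the probe set of largest spread, and Sftpc -0.03 after quantile normalization, -0.04 with array weights and -0.16 to 0.12 with arrays left out (negative without PTC 1, pool 1, pool 3 or pool 5). Of 145 genes named in the text that were called, Egf not counted, 37 missed the threshold in the 24-array fit, where the cause was not tested. Under treat, which sets a stricter threshold by construction, 26 missed it. None of the 145 turned its sign under any setting. In the 24-array fit 10 members of the mitosis list were called higher, where the 10 arrays gave 23, and 17 of the respiratory chain lower, where they gave 22. No paired analysis was possible because the titles give the PTC samples no replicate numbers that pools share. Only 10 arrays limit the precision, and low signals cannot be told from background without detection calls.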
